A study of Mus musculus with 6 samples.

Results

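The genes described here are 38 markers of 3 cell types of the lung that are not endothelial: 24 fibroblast genes, 8 mural genes and 6 mesothelial genes. They were taken by symbol from a list that was chosen with earlier results of these data known. All 38 were present among the 30055 symbols of the deposited table. The mural genes were Acta2, Tagln, Cnn1, Myh11, Des, Rgs5, Notch3 and Cspg4, and the mesothelial genes were Wt1, Msln, Upk1b, Upk3b, Lrrn4 and Bnc1. The samples themselves are labelled as lung endothelium, so these genes belong to cell types other than the labelled one.

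The libraries came from cultured lung endothelial cells of C57BL6 mice that lacked Ch25h in every group, the gene of the enzyme that makes 25-hydroxycholesterol. The mice were 3 weeks old and labelled female. The cells received vehicle, extracellular vesicles of MC38 mouse colorectal tumour cells (TEV; 20 µg per ml for 12 h), or the same vesicles after reserpine (10 µM for 8 h), a blocker of vesicular monoamine transport. Each group held 2 libraries. The sources used here do not state how the endothelial cells were purified, or whether the libraries of a group came from separate cultures or animals, so p-values measure the spread between these libraries alone. No library of cells given reserpine without vesicles was analysed here. Counts of Ch25h were present in all 6 libraries, at 0.313 to 1.07 CPM, and the sources used here do not state which part of the gene is deleted, so this level does not check the genotype.

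Fibroblasts make the collagens, elastic fibres and proteoglycans of the lung interstitium and secrete growth factors that act on epithelium. Mural cells, which are pericytes and smooth muscle cells, sit on the outside of vessels and carry a contractile apparatus of smooth muscle actin and its partners. Mesothelial cells form the pleural surface of the lung. Primary lung endothelial cultures can hold such cells beside the endothelium. Some of the genes are not exclusive to them, and Bgn and Mgp are also known from endothelial cells.

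All levels below are CPM, that is counts scaled to a common library total with edgeR's TMM factors. Total depth ran from 22270657 to 81225627 estimated counts, and 1 count was worth 0.0127 to 0.0447 CPM. Changes are log2 differences from 1 edgeR quasi-likelihood model of the 6 libraries, with standard errors after the ± sign, and the threshold for a call was an adjusted p of 0.05 over all 15035 genes tested. Of the 38 genes, 36 passed the filter on low counts, and Lum and Mfap4 did not. For 10 of the 36 only the vehicle libraries were above the filter's cutoff of 0.275 CPM, so those genes entered the test through the group in which they were high. Where a group held no count, the change is given as a bound against 3 counts over that group, and with 1 to 3 counts as a ratio with a 95% counting interval. Floors and intervals cover counting error only.

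The RefSeq promoter table (GRCm38.p6) held 22 of the 38 genes. The 250 bases before the start of 3 mural genes are shown because these genes kept very different levels after vesicles. They are those of Acta2 (chr19:34255374-34255623, minus strand), Cnn1 (chr9:22099003-22099252, plus strand) and Cspg4 (chr9:56864854-56865103, plus strand). Capitals mark matches to the CArG box, the binding motif of serum response factor, with 1 C or G allowed in its A/T core, and to the MCAT motif CATTCC on either strand.
Acta2: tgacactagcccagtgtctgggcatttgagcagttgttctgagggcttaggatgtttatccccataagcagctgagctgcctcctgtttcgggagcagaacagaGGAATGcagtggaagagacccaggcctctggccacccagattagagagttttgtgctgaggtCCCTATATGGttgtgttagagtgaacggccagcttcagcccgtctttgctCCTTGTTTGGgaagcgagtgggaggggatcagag
Cnn1: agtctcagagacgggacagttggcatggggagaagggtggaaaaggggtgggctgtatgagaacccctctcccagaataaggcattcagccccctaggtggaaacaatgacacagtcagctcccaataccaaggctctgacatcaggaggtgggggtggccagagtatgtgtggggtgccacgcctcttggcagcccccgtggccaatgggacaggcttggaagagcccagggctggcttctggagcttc
Cspg4: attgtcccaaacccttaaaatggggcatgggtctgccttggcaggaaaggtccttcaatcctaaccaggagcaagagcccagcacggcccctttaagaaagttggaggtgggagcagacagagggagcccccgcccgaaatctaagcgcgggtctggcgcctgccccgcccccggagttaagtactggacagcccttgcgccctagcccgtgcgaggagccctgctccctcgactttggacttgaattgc
Acta2 held 2 such CArG matches, from 84 to 75 and from 34 to 25 bases before its start, and 1 MCAT match. Cnn1 and Cspg4 held neither in this window. A CArG box with a pure A/T core was found in 0 of the 26 promoters of these genes and in 1.47% of all 32851 promoters. The form with 1 C or G, which was added after the sequences were seen, was found in 3 of 26 (Acta2, Fbln2 and Tbx18) and in 7.24% of all. MCAT matches stood in 4 of 26 promoters against 12.6% of all, and TATAAA, on either strand, in 4 of 26 against 12.4%. These matches are descriptions of the letters alone.

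The comparison of TEV with vehicle asked what tumour vesicles change in these cultures. With TEV, 34 of the 36 genes tested were called lower and 2, Tnc and Thy1, were called higher. Over all genes, 49.7% were called, 24.6% lower and 25.1% higher. The calls comprised 20 lower and 2 higher of 22 fibroblast genes tested, all 8 mural genes and all 6 mesothelial genes. The median log2 changes were -2.96, -2.90 and -4.30, and that of all genes tested was 0.012. The 10 genes that entered the test through the vehicle libraries alone were Ogn, Dpt, Tcf21, Mgp, Fgf10, Cspg4, Wt1, Msln, Lrrn4 and Bnc1. That entry set the direction of their change, so their calls and their part in the medians are not support beside the values of all genes. The mesothelial median lay between the changes of Lrrn4 (-4.28) and Wt1 (-4.33), which are among these genes. With Lum and Mfap4 included, both TEV libraries lay below both vehicle libraries for 36 of 38 genes, against 31.4% of the genes with any count, and above them for 2, against 32.8%. In bulk libraries, fewer cells of a type and less RNA per cell cannot be told apart.

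**Figure D1:**
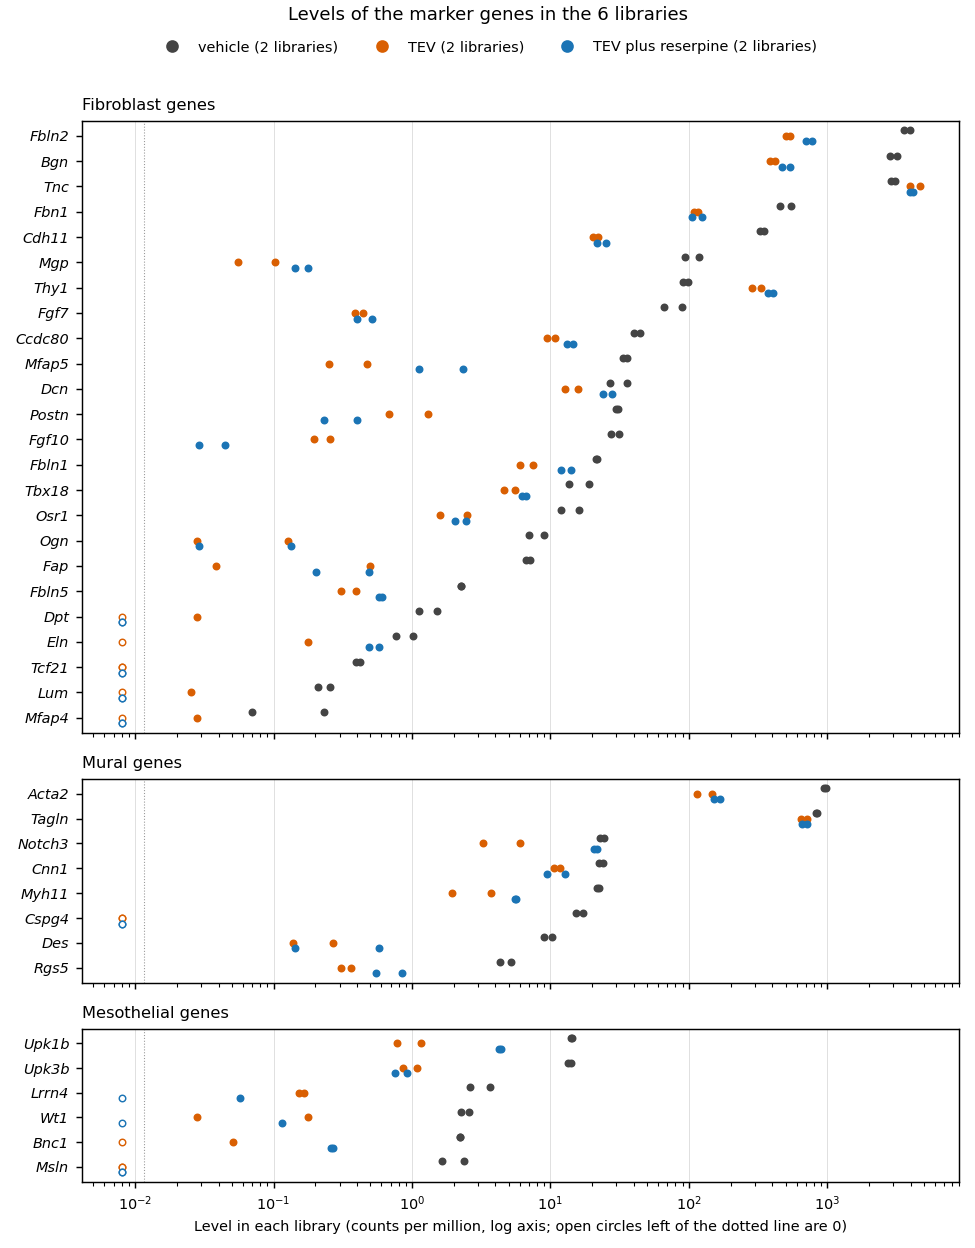
Level of each of the 38 genes in each of the 6 libraries, in CPM on a log axis, with open circles for a level of 0. The vehicle points lie to the right of the vesicle points for 35 of the 38 genes. The exceptions are Tnc and Thy1, whose vesicle points lie to the right, and Dcn, whose points with TEV plus reserpine overlap those with vehicle.

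The genes fell to very unequal remainders. Of the 24 fibroblast genes, 5 stayed at or under 1% of the vehicle mean with TEV, 4 lay over 1% and up to 5%, 3 over 5% and up to 10%, 7 over 10% and up to 25%, and 3 over 25% and up to 50%. The remaining 2 were above 100%. All 6 mesothelial genes lay below 10% of vehicle, whereas mural genes ran from no count to 81.9%.

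The largest fall among the 38 genes, by fitted change, was that of Mgp, which encodes the matrix Gla protein, an inhibitor of calcification. Mgp stood at 119 and 93.6 CPM in the vehicle libraries and at 0.0555 and 0.102 CPM in the TEV libraries (log2 change -10.21 ± 0.25, edgeR adjusted p = 2.18e-06). Both TEV libraries held under 10 counts of it, and without TEV replicate 2 the change was -10.81, fitted on 2 counts. The growth factor genes Fgf7 and Fgf10, whose products act on lung epithelium, came next among the genes so fitted, at 181-fold and 125-fold. Genes given by counts are not ranked here, and of these Cspg4 fell at least 625-fold and Dpt 155-fold. Fgf7 went from 66 and 89.5 to 0.389 and 0.446 CPM (log2 change -7.50 ± 0.23, edgeR adjusted p = 4.70e-06). For Fgf10 the levels were 31.4 and 27.5 CPM with vehicle and 0.194 and 0.255 CPM with TEV (log2 change -6.97 ± 0.22, edgeR adjusted p = 4.70e-06). In both genes less than 1% of the vehicle level remained.

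Genes of elastic fibres and microfibrils fell by different amounts. Mfap5, a microfibril glycoprotein gene, measured 33.4 and 35.6 CPM with vehicle and 0.25 and 0.471 CPM with TEV (log2 change -6.46 ± 0.39, edgeR adjusted p = 4.43e-05), and -7.09 without TEV replicate 2. Fbn1, the fibrillin gene of the same fibres, kept 22.4% of its level, at 549 and 454 CPM against 109 and 116 CPM (log2 change -2.16 ± 0.12, edgeR adjusted p = 3.85e-05). Eln, which encodes elastin, was low throughout, at 0.766 and 1.01 CPM with vehicle and 0 and 0.178 CPM with TEV. Its call (log2 change -3.02 ± 0.90, edgeR adjusted p = 0.0293) ended without either vehicle library (adjusted p 0.0713 and 0.101) or either library of TEV plus reserpine (0.0556 and 0.0545). The change of Eln was -2.27 without TEV replicate 1, and no count remained without TEV replicate 2. Mfap4, another microfibril gene, had 0.232 and 0.0696 CPM with vehicle and 0.0278 and 0 CPM with TEV, a ratio of 19.2 with a counting interval of 2.83 to 819.

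The fibulins, glycoproteins that bind elastic fibres and basement membranes, all fell. Fbln2 was the most counted of them, at 3986 and 3555 CPM with vehicle and 503 and 540.3 CPM with TEV (log2 change -2.85 ± 0.095, edgeR adjusted p = 6.39e-06). Fbln1 went from 21.5 and 21.3 to 6.02 and 7.43 CPM (log2 change -1.66 ± 0.16, edgeR adjusted p = 0.000293). Fbln5, which takes part in elastic fibre assembly, went from 2.25 and 2.26 to 0.305 and 0.395 CPM (log2 change -2.66 ± 0.35, edgeR adjusted p = 0.00112). The share of the vehicle level that remained was 13.8% for Fbln2, 31.4% for Fbln1 and 15.5% for Fbln5.

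Small leucine-rich proteoglycans, which organise collagen fibrils, kept unequal shares. Dcn, the decorin gene, fell from 26.8 and 35.5 to 12.7 and 15.7 CPM, the smallest decrease among the fibroblast genes (log2 change -1.12 ± 0.18, edgeR adjusted p = 0.0024). Bgn, the biglycan gene, fell from 3168 and 2846 to 387 and 416 CPM (log2 change -2.90 ± 0.10, edgeR adjusted p = 7.40e-06). Ogn, which encodes osteoglycin, had 8.94 and 7.0 CPM with vehicle but 0.0278 and 0.127 CPM with TEV (log2 change -6.41 ± 0.58, edgeR adjusted p = 0.000236), and its change was -7.98, fitted on 1 count, without TEV replicate 2. Lum, the lumican gene, was near the limit of detection in every group, at 0.255 and 0.209 CPM with vehicle and 0 and 0.0255 CPM with TEV, and was not tested. Of this family, Dcn thus kept 45.7% of its vehicle level, Bgn 13.4% and Ogn 0.973%.

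The remaining secreted matrix genes of the list were Postn, Ccdc80 and Dpt, which fell, and Tnc, which rose. Postn, which encodes periostin, dropped from 29.9 and 30.6 to 1.3 and 0.687 CPM (log2 change -4.99 ± 0.32, edgeR adjusted p = 5.45e-05), and Ccdc80 from 40.0 and 44.4 to 10.7 and 9.52 CPM (log2 change -2.06 ± 0.13, edgeR adjusted p = 4.73e-05). Dpt, the dermatopontin gene, had 1.51 and 1.11 CPM with vehicle and a total of 1 count with TEV. The fall was 155-fold, counting interval 27.1 to 6177 (edgeR adjusted p = 0.00243). Tnc, which encodes the matrix glycoprotein tenascin-C, rose from 2901 and 3092 to 3952 and 4637 CPM (log2 change 0.52 ± 0.089, edgeR adjusted p = 0.00328). Both TEV libraries of Tnc were above both vehicle libraries, at 143% of the vehicle mean.

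Surface proteins went both ways. Cdh11, the cadherin of mesenchymal cells, fell from 327 and 349.6 to 22 and 20.4 CPM (log2 change -4.00 ± 0.11, edgeR adjusted p = 3.15e-06). Fap, a protease gene of activated fibroblasts, fell from 7.08 and 6.69 to 0.50 and 0.0382 CPM (log2 change -4.90 ± 0.92, edgeR adjusted p = 0.00477), and its TEV libraries lay far apart. The change of Fap was -7.37, fitted on 3 counts, without TEV replicate 1 and -3.77 without TEV replicate 2. Thy1, a GPI-anchored surface glycoprotein used to sort fibroblasts, rose from 99 and 90.7 to 286 and 333 CPM (log2 change 1.71 ± 0.10, edgeR adjusted p = 4.75e-05). Thy1 thus reached 326% of the vehicle mean, with both TEV libraries above both vehicle libraries.

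The transcription factors of the fibroblast list also fell. Tcf21, a basic helix-loop-helix factor of lung mesenchyme, had 0.395 and 0.418 CPM with vehicle. No count was left after TEV, at least a 15.4-fold drop (edgeR adjusted p = 0.00787). Osr1, a zinc finger factor, fell from 16.1 and 11.8 to 1.58 and 2.5 CPM (log2 change -2.76 ± 0.29, edgeR adjusted p = 0.000392). Tbx18, a T-box factor also used to trace mural cells, fell from 13.5 and 19 to 4.61 and 5.54 CPM (log2 change -1.67 ± 0.21, edgeR adjusted p = 0.00084). Of these factors, Tbx18 kept 31.2% and Osr1 14.6% of the vehicle level.

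Among the mural genes, the surface proteoglycan gene Cspg4 was the extreme. Cspg4 stood at 17.1 and 15.3 CPM with vehicle and had no count in any of the 4 vesicle libraries. Its drop with TEV was at least 625-fold (edgeR adjusted p = 6.98e-05). Des, which encodes the intermediate filament desmin, fell from 10.3 and 9.05 to 0.139 and 0.267 CPM (log2 change -5.46 ± 0.56, edgeR adjusted p = 0.000367), and its change was -6.08 without TEV replicate 2. Rgs5, a regulator of G protein signalling typical of pericytes, fell from 4.32 and 5.15 to 0.361 and 0.306 CPM (log2 change -3.83 ± 0.35, edgeR adjusted p = 0.000245). Notch3, the Notch receptor of mural cells, fell from 24.2 and 22.9 to 3.28 and 6.0 CPM (log2 change -2.32 ± 0.26, edgeR adjusted p = 0.000559). The remaining shares were 2.1% for Des, 7.04% for Rgs5 and 19.7% for Notch3.

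The contractile genes of the mural list fell less evenly. Acta2, the smooth muscle actin gene whose promoter is printed above, went from 973 and 953 to 114 and 147 CPM (log2 change -2.88 ± 0.13, edgeR adjusted p = 1.78e-05). Myh11, the smooth muscle myosin heavy chain gene, went from 22.3 and 21.8 to 1.94 and 3.74 CPM (log2 change -2.92 ± 0.29, edgeR adjusted p = 0.000328). In contrast, Cnn1, which encodes calponin, kept 48.1% of its level, at 23.8 and 22.6 CPM against 10.7 and 11.7 CPM (log2 change -1.05 ± 0.17, edgeR adjusted p = 0.00225). Tagln, the transgelin gene, kept 81.9%, at 824 and 846 CPM against 648 and 719 CPM (log2 change -0.29 ± 0.084, edgeR adjusted p = 0.0263). The call of Tagln ended without vehicle replicate 1 (adjusted p 0.0809), vehicle replicate 2 (0.112) or TEV replicate 1 (0.144). Acta2 and Myh11 thus fell by more than 2.8 on the log2 scale, while Tagln, a gene of the same apparatus, fell by 0.29.

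The mesothelial genes fell together. Upk1b and Upk3b, which encode uroplakins, had nearly equal levels. Upk1b fell from 14.2 and 14 CPM to 0.777 and 1.16 CPM with TEV (log2 change -3.83 ± 0.23, edgeR adjusted p = 4.65e-05). Upk3b fell from 14 and 13.4 CPM to 0.861 and 1.09 CPM (log2 change -3.79 ± 0.22, edgeR adjusted p = 4.27e-05). Wt1, the transcription factor of mesothelium, fell from 2.58 and 2.26 to 0.0278 and 0.178 CPM (log2 change -4.33 ± 0.81, edgeR adjusted p = 0.00478), and Bnc1, a zinc finger factor, from 2.23 and 2.23 to 0 and 0.0509 CPM (log2 change -5.95 ± 0.70, edgeR adjusted p = 0.000655). Both rested on few counts in the TEV libraries. Without TEV replicate 1 the changes were -3.72 for Wt1 and -5.35 for Bnc1. Without TEV replicate 2 the change of Wt1 was -6.26, fitted on 1 count, and no count of Bnc1 remained with TEV. Lrrn4, a leucine-rich repeat gene, fell from 3.65 and 2.61 to 0.167 and 0.153 CPM (log2 change -4.28 ± 0.53, edgeR adjusted p = 0.000852). Msln, the mesothelin gene, had 2.39 and 1.64 CPM with vehicle and no count with TEV, at least 79.8-fold lower (edgeR adjusted p = 0.00119). No mesothelial gene kept as much as 10% of its vehicle level.

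Further genes listed for the same cell types, not all of them exclusive to those types, were read beside the 38. With TEV, 24.6% of all genes tested were called lower and 25.1% higher. Of 29 other fibroblast genes, 25 were tested, 21 were called lower and 0 higher with TEV, with a median log2 change of -4.27. Among the 4 with the highest mean level, Col1a2, a collagen I chain, fell from 1467 and 1249.7 to 1.3 and 2.16 CPM, and Col5a2, a collagen V chain, from 1487 and 1416 to 330.5 and 423 CPM. Sparc, a matricellular protein gene, fell by 0.32 on the log2 scale, and the fibronectin gene Fn1 was not called (log2 change 0.18 ± 0.072, edgeR adjusted p = 0.0729). Of 24 other mural genes, 13 were called lower and 2 higher of 22 tested, with a median of -1.59. The 4 with the highest mean level, Cald1, Tpm1, Actn1 and Mcam, had log2 changes of -0.21, -0.19, -0.34 and -0.012, of which only that of the actinin gene Actn1 was called. Of 16 other mesothelial genes, 7 were called lower and 4 higher of 13 tested, with a median of -0.50. Cdh2, a cadherin gene and the most counted of these, stood at 228 and 206 CPM with vehicle and 282 and 222 CPM with TEV. Next in mean level, Sulf1, a sulfatase gene, fell by 3.82 on the log2 scale, whereas the keratin gene Krt18 rose by 2.48 and the transcription factor gene Gata4 by 2.34. Inmt, Aspn, Ndufa4l2, Heyl, Ebf2, Foxs1, Rspo1 and Aldh1a2 of these lists entered the test through the vehicle libraries alone. That entry set the direction of their change, so their calls and their part in the medians are not support beside the values of all genes.

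Markers of other cell types moved beside these genes. The 16 endothelial markers were counted in every group, and their summed level was 5373 and 5320.0 CPM with vehicle, 10604 and 10496 CPM with TEV and 10641 and 10346 CPM with TEV plus reserpine. Of them, 9 were called higher and 6 lower with TEV, against 25.1% and 24.6% of all genes tested. The 4 most counted, Cdh5, Emcn, Pecam1 and Eng, were called higher, at 129%, 717%, 267% and 389% of vehicle, so the summed level follows these. The 6 called lower were Vwf, Cldn5, Kdr, Sox17, Sox18 and Tek, at 12.3%, 13%, 26.3%, 33.2%, 41.8% and 80.9% of vehicle. The 13 macrophage and leukocyte markers in the table summed to 54.6 and 65.4 CPM with vehicle, 23.9 and 23.1 CPM with TEV and 31.3 and 30.4 CPM with TEV plus reserpine, and 7 of 11 tested were lower and 1 higher with TEV. C1qa, C1qb and C1qc, which are among the leukocyte markers called lower, entered the test through the vehicle libraries alone. That entry set the direction of their change, so these calls are not support beside the 24.6% of all genes called lower. The 12 lung epithelial markers summed to under 4 CPM in every library, and Epcam, Scgb3a2 and Sftpa1 of that list had no count with vehicle. The part of these shifts in the changes of the 38 genes was not tested.

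Summed over all 24 fibroblast genes, the level was 11449 and 10815 CPM with vehicle and 5297 and 6106 CPM with TEV, or 51.2% of vehicle. In this sum Tnc rose and was the most counted gene with TEV, whereas Fbln2 was the most counted with vehicle. Over the 23 genes other than Tnc it was 8548 and 7723 CPM with vehicle and 1345 and 1469 CPM with TEV, or 17.3% of vehicle. The mural genes summed to 1899 and 1896 CPM with vehicle and 779 and 888 CPM with TEV, or 43.9%. The mesothelial genes summed to 39.1 and 36.2 CPM with vehicle and 1.83 and 2.64 CPM with TEV, or 5.94%. Each sum is set mainly by its most counted genes, which without Tnc were Fbln2 and Bgn, Acta2 and Tagln, and Upk1b and Upk3b.

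**Figure D2:**
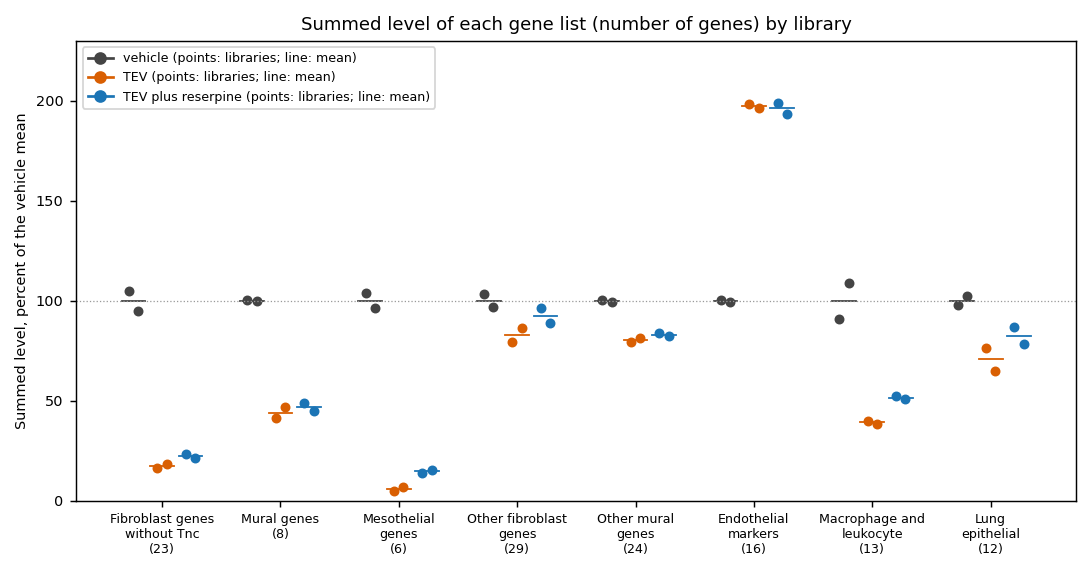
Summed level of the gene lists shown in each library, as a percent of the mean of the vehicle libraries, with the number of genes in parentheses. The fibroblast genes are summed without Tnc, points are libraries and short lines are group means. The other mesothelial genes are not shown, and stood at 71.2% of vehicle with TEV and 58.5% with TEV plus reserpine. Of the lists shown, the mesothelial genes lie lowest with TEV, at 5.94% of vehicle, and the endothelial markers highest, at 197%.

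The comparison of TEV plus reserpine with TEV addressed the effect of reserpine given before the vesicles. Of the 36 genes tested, 13 were called, 11 higher and 2 lower, against 31.6% of all genes, 15.7% being higher and 16% lower. The fibroblast genes gave 7 higher and 2 lower of 22 tested, the mural genes 2 higher of 8 and the mesothelial genes 2 higher of 6. Median log2 changes were 0.33, 0.45 and -0.11, beside 0.00037 for all genes. Both libraries of TEV plus reserpine lay above both TEV libraries for 17 of the 38 genes, against 27% of all genes with a count, and below them for 3, against 29.9%. Of the 13 calls, those of Fbln1, Notch3 and Upk1b held in each of the 16 other settings tried, and the other 10 ended in at least 1. The comparison shares its TEV libraries with the one above.

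Notch3 lay near its vehicle level when reserpine was given before the vesicles. Its levels were 3.28 and 6.0 CPM with TEV and 21.6 and 20.6 CPM with TEV plus reserpine (log2 change 2.16 ± 0.26, edgeR adjusted p = 0.00229). Against vehicle, at 24.2 and 22.9 CPM, Notch3 with TEV plus reserpine was not called different (log2 change -0.16 ± 0.25, edgeR adjusted p = 0.64). Myh11 rose from 1.94 and 3.74 to 5.63 and 5.51 CPM (log2 change 0.94 ± 0.29, edgeR adjusted p = 0.0463), a call that ended when any library but TEV replicate 2 was left out (adjusted p 0.0701 to 0.142). Without TEV replicate 2 the change of Myh11 was 1.53. The remaining mural genes were not called. Rgs5 had 0.849 and 0.545 CPM (log2 change 1.05 ± 0.36, edgeR adjusted p = 0.067), Acta2 168 and 152 CPM (log2 change 0.29 ± 0.13, edgeR adjusted p = 0.125), and Des 0.581 and 0.144 CPM (log2 change 0.62 ± 0.64, edgeR adjusted p = 0.489). Tagln, at 719 and 659 CPM, and Cnn1, at 12.6 and 9.39 CPM, had changes of 0.011 ± 0.084 and -0.027 ± 0.17, and both signs turned in other settings. Acta2 was called without TEV replicate 2 (change 0.50, edgeR adjusted p = 0.0171). Cspg4 again had no count.

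Upk1b and Bnc1 were the mesothelial genes called. Upk1b rose from 0.777 and 1.16 to 4.24 and 4.42 CPM with reserpine (log2 change 2.13 ± 0.23, edgeR adjusted p = 0.00157). Upk3b, the other uroplakin gene of the list, had 0.759 and 0.919 CPM and was not called (log2 change -0.22 ± 0.24, edgeR adjusted p = 0.499). Both uroplakin genes had stood at nearly the same level relative to vehicle with TEV, at 6.85% and 7.13%. Bnc1 rose to 0.268 and 0.258 CPM (log2 change 2.88 ± 0.77, edgeR adjusted p = 0.0302). The call of Bnc1 ended when any library but TEV replicate 2 was left out (adjusted p 0.0594 to 0.099), and its change was 2.29 without TEV replicate 1. Wt1 had 0 and 0.115 CPM, with libraries that overlapped those with TEV (log2 change -0.78 ± 1.08, edgeR adjusted p = 0.611). Lrrn4 had 0 and 0.0574 CPM, 4.5-fold below TEV (interval 1.08 to 39.9), and was not called (edgeR adjusted p = 0.0919). Msln again had no count.

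In the fibroblast list, Fbln1 rose from 6.02 and 7.43 to 14.1 and 11.9 CPM with reserpine (log2 change 0.94 ± 0.16, edgeR adjusted p = 0.00744). Fbln2 rose to 769 and 697 CPM (log2 change 0.49 ± 0.089, edgeR adjusted p = 0.00903), a call that ended without TEV replicate 1 (adjusted p 0.0525). Dcn rose to 27.7 and 24.2 CPM (log2 change 0.86 ± 0.18, edgeR adjusted p = 0.0138), a call that ended without TEV replicate 1 (0.0753) or replicate 1 of TEV plus reserpine (0.0714). Mfap5 rose to 1.12 and 2.33 CPM (log2 change 2.19 ± 0.40, edgeR adjusted p = 0.00929). Without replicate 2 of TEV plus reserpine its change was 1.52 and no longer called (0.0519), and it was 2.83 when TEV replicate 2 was left out. Smaller increases were called for Bgn (to 537 and 469 CPM; log2 change 0.33 ± 0.096, edgeR adjusted p = 0.042), Ccdc80 (to 14.6 and 13.2 CPM; log2 change 0.46 ± 0.13, edgeR adjusted p = 0.0343) and Thy1 (to 409 and 375 CPM; log2 change 0.34 ± 0.10, edgeR adjusted p = 0.0435). The call of Bgn ended when any library but replicate 2 of TEV plus reserpine was left out (adjusted p 0.0528 to 0.188). That of Ccdc80 ended whichever library was left out (0.0582 to 0.127), and that of Thy1 when any but TEV replicate 2 was left out (0.0647 to 0.20).

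Postn and Fgf10 went the other way. Postn fell further, from 1.3 and 0.687 to 0.402 and 0.23 CPM (log2 change -1.65 ± 0.43, edgeR adjusted p = 0.0287). Its call ended without TEV replicate 1 or either library of TEV plus reserpine (adjusted p 0.0605 to 0.178). Fgf10 had 0.0447 and 0.0287 CPM, or 2 counts in all, which was 6.74-fold below TEV (counting interval 1.69 to 58.5; edgeR adjusted p = 0.00927). That call ended without TEV replicate 2 (0.058) or replicate 2 of TEV plus reserpine (0.104). Fgf7, its relative, had 0.402 and 0.517 CPM and was not called (log2 change 0.14 ± 0.35, edgeR adjusted p = 0.782).

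Other fibroblast genes were not called between the vesicle groups. Mgp had 0.179 and 0.144 CPM with TEV plus reserpine, Tnc 3979 and 4141, Cdh11 21.7 and 25.1, Fbn1 106 and 124, Osr1 2.05 and 2.44 and Tbx18 6.25 and 6.63 CPM. Their log2 changes lay between -0.081 (Tnc) and 0.84 (Mgp). Fbln5 had 0.581 and 0.603 CPM, Ogn 0.134 and 0.0287 CPM and Fap 0.491 and 0.201 CPM. Eln, at 0.581 and 0.488 CPM, had a change of 2.29 ± 0.92 (edgeR adjusted p = 0.101), although both its libraries lay above those with TEV. Fap was called higher without TEV replicate 1 (adjusted p 0.0468, on 3 counts with TEV), and Eln had no count left with TEV without TEV replicate 2. Lum, Dpt, Mfap4 and Tcf21 had no count with TEV plus reserpine.

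**Figure D3:**
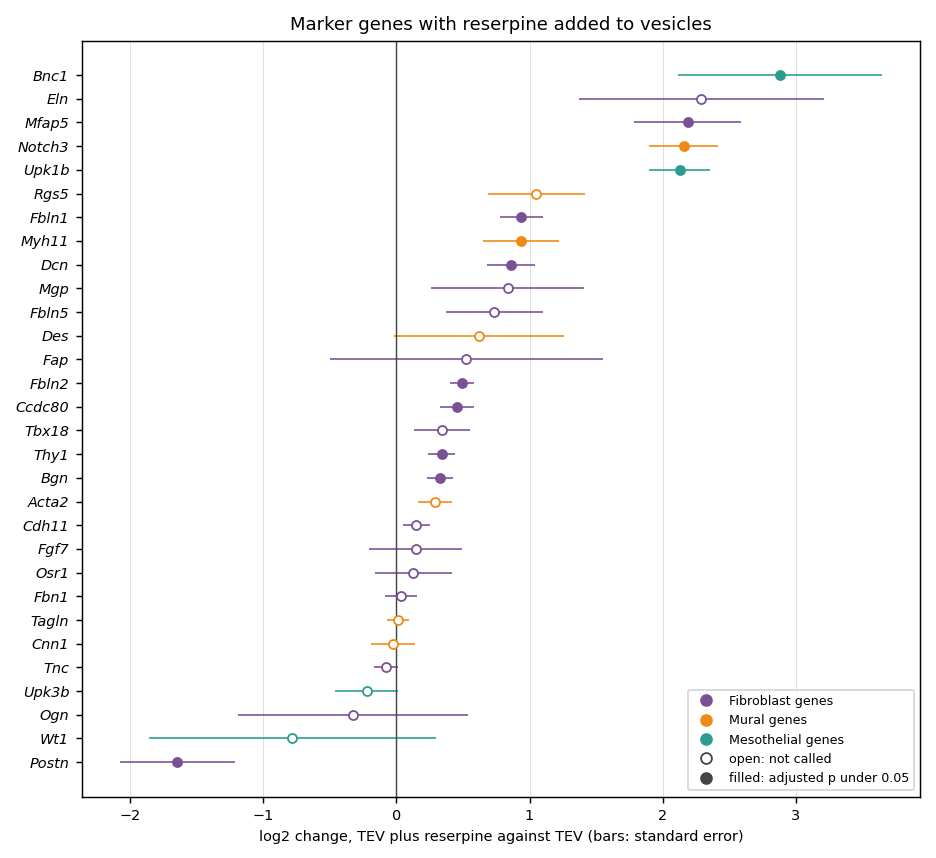
Log2 change of each gene between TEV plus reserpine and TEV, for the 30 genes tested with more than 3 counts in both groups; bars are standard errors, filled points were called at an edgeR adjusted p under 0.05, and colours mark the 3 lists. Bnc1 lies highest, at 2.88, Notch3 and Upk1b combine a change above 2 with short bars, and Postn lies lowest, at -1.65.

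Of the further genes, 7 of 25 other fibroblast genes, 7 of 22 other mural genes and 4 of 13 other mesothelial genes were called higher with reserpine, and 0, 0 and 2 lower. Over all genes tested, 15.7% were called higher and 16% lower. Sparc rose by 0.51 and Col5a2 by 0.82 on the log2 scale, whereas Col1a2, at 2.68 and 2.58 CPM, was not called (log2 change 0.52 ± 0.24, edgeR adjusted p = 0.146). Endothelial markers were called higher for 7 and lower for 3 of 16, while their summed level stayed between 10346 and 10641 CPM in all 4 vesicle libraries.

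The comparison of TEV plus reserpine with vehicle asked how far the cultures remained from vehicle when both agents were given. Of the 36 genes tested, 31 were called lower, 2 higher and 3 were not called, against 39.1% of all genes called, 19.9% lower and 19.1% higher. The genes called lower include the 10 that entered the test through the vehicle libraries alone. The groups did not overlap for 35 genes that were lower and 2 that were higher, against 31.2% and 27.2% of all genes with a count. The 3 genes not called were Dcn (log2 change -0.26 ± 0.18, edgeR adjusted p = 0.282), Eln (log2 change -0.73 ± 0.82, edgeR adjusted p = 0.515) and Notch3. Tnc (log2 change 0.44 ± 0.089, edgeR adjusted p = 0.00909) and Thy1 (log2 change 2.05 ± 0.11, edgeR adjusted p = 5.30e-05) were again the 2 called higher. The medians were -2.61 for fibroblast, -2.29 for mural and -4.56 for mesothelial genes, beside -0.024 for all genes. They too include the 10 genes that entered the test through the vehicle libraries alone. This comparison shares libraries with both others, so its values are set beside theirs without a test of likeness.

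Genes of which little was left with TEV were also low with TEV plus reserpine. Mgp kept 0.152% of its vehicle level (log2 change -9.37 ± 0.25, edgeR adjusted p = 4.28e-06), Fgf7 0.591% (log2 change -7.36 ± 0.25, edgeR adjusted p = 9.09e-06) and Ogn 1.02%. Fgf10 was 855-fold below vehicle (interval 236 to 7061), Cspg4 at least 312-fold lower and Msln at least 39.9-fold lower. Lrrn4 was 92.5-fold lower (25.3 to 768), Dpt at least 25.8-fold and Tcf21 at least 7.71-fold lower. The call of Tcf21 ended without vehicle replicate 2 or either library of TEV plus reserpine (adjusted p 0.0592 to 0.0828). Lum and Mfap4, untested, were at least 4.52-fold and 3.19-fold lower.

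Genes that kept a middle level with TEV differed in how near to vehicle they lay with reserpine. Fbln1 stood at 60.7% of vehicle (log2 change -0.72 ± 0.16, edgeR adjusted p = 0.0119), a call that ended without vehicle replicate 1 (0.0577) or replicate 2 of TEV plus reserpine (0.0708). Tbx18 stood at 39.6%, Ccdc80 at 32.9%, Fbln5 at 26.2%, Fbn1 at 22.9%, Fbln2 at 19.4%, Bgn at 16.7% and Osr1 at 16.1%, all called lower. Lower remainders were those of Cdh11 (6.91%), Fap (5.03%), Mfap5 (4.99%) and Postn (1.04%). The change of Mfap5 was -4.28, and -4.94 without replicate 2 of TEV plus reserpine. The call of Fap ended without that library (0.0662), and its change was -5.06 in place of -4.37 without replicate 1 of the group. Ogn, whose change was -6.74, had -7.97 without replicate 1 and -5.86 without replicate 2 of that group, fitted on 1 and 3 counts.

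Of the mural genes, Tagln stood at 82.5% of vehicle, Cnn1 at 47.5%, Myh11 at 25.3%, Acta2 at 16.6%, Rgs5 at 14.7% and Des at 3.75%, all called lower. The call of Tagln ended without either vehicle library or either library of TEV plus reserpine (adjusted p 0.0704 to 0.166). Des, with a change of -4.84, had -6.03 and -4.05 when the libraries of TEV plus reserpine were left out in turn. Of the mesothelial genes, Upk1b stood at 30.7% (log2 change -1.70 ± 0.21, edgeR adjusted p = 0.0013), Bnc1 at 11.8% (log2 change -3.07 ± 0.58, edgeR adjusted p = 0.00697), Upk3b at 6.12% and Wt1 at 2.37%. The change of Wt1 was -5.11, and -4.35 without replicate 1 of TEV plus reserpine, while no count was left without replicate 2.

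**Figure D4:**
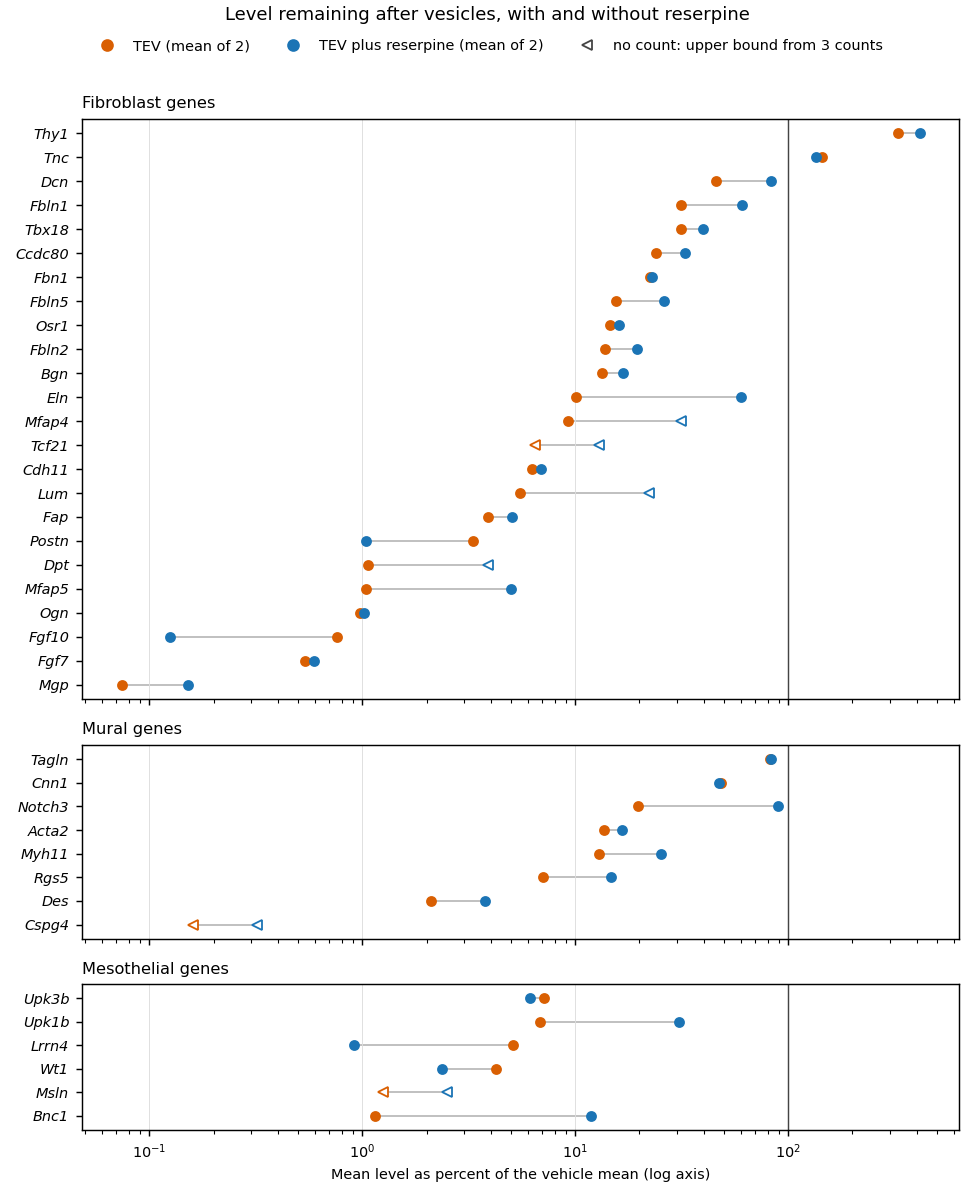
Mean level of each gene with TEV and with TEV plus reserpine, as a percent of the vehicle mean on a log axis; open triangles are upper bounds from 3 counts where a group had none. Notch3 moves from 19.7% to 89.6% and Upk1b from 6.85% to 30.7%, while Mgp and Fgf7 stay below 1% in both groups.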

How the data were processed

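RNA was taken with Trizol, and polyA libraries made with a TruSeq kit were sequenced as 75 bp single-end reads, per the labels' protocols. Per the submitters' processing notes, kallisto 0.45.0 and R 4.0.0 with edgeR and limma were used, and the build named is GRCh38, whereas the symbols are mouse symbols, so no coordinates were attached to expression values. The strandedness of the counting is not stated. The authors deposited estimated counts per symbol, in a table of 30055 symbols and in a filtered table of 13098, whose values equal those of the first.

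After rounding of these estimated counts, filterByExpr of edgeR kept 15035 genes, which were scaled with TMM factors from 0.941 to 1.04. The 3 contrasts came from 1 edgeR quasi-likelihood model with 3 residual degrees of freedom, with Benjamini-Hochberg adjustment over all genes; standard errors are the log2 change over the root of F. The tools were edgeR 4.0.16, DESeq2 1.42.0 and limma 3.58.1 under R 4.3.3. On simulated data with 14678 genes in the design of TEV against vehicle, 100% of genes changed by 2 and 82% changed by 1 on the log2 scale were recovered. The changed genes were drawn from those with a mean above 1 CPM, and all genes shared 1 spread. These rates therefore do not cover the members of lower level, such as Tcf21 and Dpt. The members and lists were chosen with earlier results of these data known. All 38 members were to be named, and at most the 4 genes of highest mean CPM of each other list. The endothelial markers called lower, Epcam, Scgb3a2, Sftpa1 and the genes of the closing observations were singled out after their values were seen. So were the genes named from other lists as entering the test through the vehicle libraries alone. Alternatives were other scalings, filters, tests, thinning, blocks and leaving out each library. The text of the series could mean that every culture had reserpine, but the sample labels give it to 1 group and were followed. Replicate numbers come from the titles, and in the descriptions the vesicle libraries carry the numbers 2 and 3.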

Additional observations from a re-analysis of the deposited data

How the results depend on the processing

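Settings other than the one reported moved mainly the effects of reserpine. Only vehicle replicate 1 carries the description number 1. With those numbers as a block, the contrasts with vehicle therefore rest on vehicle replicate 2, with fewer residual degrees of freedom. With the description numbers as a replicate block, 2173 genes were called higher and 2395 lower with TEV than with vehicle, in place of 3773 and 3703, and 1256 higher and 1446 lower with TEV plus reserpine than with vehicle, in place of 2879 and 2994. Tnc then lost its call, so that 1 fibroblast gene was higher in each of these contrasts. Between TEV plus reserpine and TEV, 4 fibroblast genes were called higher with only the groups compared, with the title numbers as a replicate block and with the description numbers as a block. In the same contrast 0 fibroblast genes were called lower with limma-voom or with only the groups compared, and 1 after thinning to the smallest library. There, 1 mural gene was called higher with limma-voom, with only the groups compared and with the title block. The mesothelial list likewise gave 1 with only the groups compared and with either block.

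Libraries with the same title number did not deviate together (correlations of 0.0189, 0.0237 and -0.0418), so the title numbers show no pairing. A pairing of vehicle with vesicle libraries by the description numbers was not tested in this way, and calls lost under that block do not show one. The description block ended the calls of Eln, Tcf21, Tnc and Tagln with TEV against vehicle (adjusted p 0.0629, 0.0719, 0.0773 and 0.186), and of Fbln1, Fbln5, Tcf21, Tnc and Tagln with TEV plus reserpine against vehicle (0.0964, 0.0686, 0.135, 0.170 and 0.244). The title block ended that of Tagln in both (0.0519 and 0.0723), and DESeq2 that of Tcf21 with TEV plus reserpine against vehicle (0.063).

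Leaving out each library in turn gave, between TEV plus reserpine and TEV, 1049 to 2177 genes called higher and 1075 to 2138 lower, with 3 to 6 fibroblast genes higher, 0 to 2 lower, 1 to 3 mural and 1 to 2 mesothelial genes higher. Against vehicle, TEV plus reserpine gave 1800 to 2977 genes higher and 1772 to 2980 lower. Uncalled changes between the vesicle groups turned sign: Fbn1 (-0.081 to 0.14), Ogn (-1.57 to 1.27), Osr1 (-0.15 to 0.53), Tnc (-0.20 to 0.053), Fap (-0.59 to 3.00), Fgf7 (-0.080 to 0.29), Tagln (-0.068 to 0.10), Cnn1 (-0.25 to 0.18), Des (-0.58 to 1.41) and Wt1 (-5.34 to 1.18). Both extremes of Ogn and Wt1 and the upper of Fap were fitted on 3 counts or fewer in a group. Tagln was -0.0015 with no filter, and Cnn1 0.050 with library size alone and 0.12 after thinning. Where no value here shows the cause, the cause was not tested.

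With library size alone as the scale, the median gene of the TEV contrast with vehicle stood at -0.11 in place of 0.012, and 39.8% of its calls were higher in place of 50.5%. In TEV plus reserpine against TEV, 59.4% of calls were higher in place of 49.5%. No call of a member changed under that scale. Calls held in every setting for 32 of 36 members called with TEV against vehicle, 3 of 13 with TEV plus reserpine against TEV and 27 of 33 against vehicle. Genes with 0 to 2 counts in each vesicle library, such as Lum and Mfap4, cannot be followed below the floor, and 2 libraries per group limit all errors.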

Other observations

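Among the other mural genes, the subunit genes of a vascular ATP-sensitive potassium channel, Abcc9 and Kcnj8, were, like Notch3, called lower with TEV than with vehicle and higher with TEV plus reserpine than with TEV. Abcc9 had 25.3 and 22.8 CPM with vehicle, 1.14 and 1.91 CPM with TEV and 10.5 and 11.7 CPM with TEV plus reserpine. The changes were -3.94 ± 0.25 (edgeR adjusted p = 5.27e-05) for TEV against vehicle and 2.82 ± 0.24 (edgeR adjusted p = 0.000842) for TEV plus reserpine against TEV. Unlike Notch3, Abcc9 was still called lower with TEV plus reserpine than with vehicle (log2 change -1.12 ± 0.22, edgeR adjusted p = 0.00777). Kcnj8 had 1.53 and 2.09, 0.528 and 0.356 and 1.79 and 4.31 CPM in the same order (log2 change -2.05 ± 0.51, edgeR adjusted p = 0.0145 for TEV against vehicle, log2 change 2.82 ± 0.51, edgeR adjusted p = 0.0090 for TEV plus reserpine against TEV). Heyl, a transcription factor gene known as a Notch target in mural cells, had 3.11 and 1.64 CPM with vehicle, 0.0833 and 0.0127 CPM with TEV and 0 and 0.0574 CPM with TEV plus reserpine, so its level stayed low where that of Notch3 was near vehicle.

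The 9 collagen genes among the other fibroblast genes kept unequal shares of their vehicle level with TEV. The shares were 0.128% for Col1a2, 1.3% for Col1a1, 2.92% for Col6a1, 0.595% for Col6a2, 3.03% for Col6a3, 15.3% for Col14a1, 5.19% for Col3a1, 23.2% for Col5a1 and 26% for Col5a2, each called lower by edgeR. The transcription factor gene Prrx1, a mark of mesenchyme, went from 229.7 and 209 to 0.444 and 0.904 CPM (log2 change -8.21 ± 0.24, edgeR adjusted p = 3.61e-06), while Twist1 went from 14.6 and 14.2 to 1.39 and 1.35 CPM (log2 change -3.39 ± 0.18, edgeR adjusted p = 2.82e-05). All of these genes were chosen after their values were seen.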
